A study of Mus musculus with 12 samples.

Results

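Homeostatic microglia genes are transcripts that resting microglia, the resident macrophages of the brain parenchyma, express at a high level. The 9 genes described here (P2ry12, P2ry13, Tmem119, Gpr34, Siglech, Sall1, Csf1r, Olfml3 and Selplg) were taken by symbol from a table of 21983 genes, and 9 of 9 had enough reads to be tested, as did 14626 genes in all. RNA-seq was run on whole brains of 6-week-old wild-type C57BL/6 mice in 3 groups of 4 libraries: mice with experimental cerebral malaria (ECM) given artesunate, an antimalarial drug, for 4 days, mice with ECM, and control mice. Time since infection is not given for any group, so the duration of disease and the treatment cannot be told apart in the treated mice. Nothing in the labels says whether the libraries of a group came from different animals, and p-values therefore measure the spread between samples.

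Microglia survey the brain with motile processes that follow nucleotides released from damaged cells, and P2Y receptors on their surface sense these nucleotides. Their survival depends on signalling through the receptor encoded by Csf1r, and their identity is maintained by transforming growth factor beta and by transcription factors such as those encoded by Sall1 and Spi1. When microglia respond to injury or infection they commonly lose part of this homeostatic programme, and blood monocytes that enter the brain express some of the same genes, among them Csf1r and Selplg. In RNA from whole brain, fewer microglia and less of a transcript per microglial cell cannot be told apart.

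Reads assigned to genes ran from 13342177 in ECM 1 to 18886822 in ECM 4. Libraries of 1 group were not alike in composition. How far genes in a library lay above or below their all-library mean was related to GC content, the share of G and C bases in a transcript, with a rank correlation across genes of 0.405 to 0.514 in the treated libraries, -0.467 to 0.537 in ECM and -0.655 to 0.316 in controls, lowest in control 4. The share of reads from mitochondrial genes was highest in ECM 2 (15.2%), ECM 3 (13.2%) and control 4 (10.7%), and lowest at 4.74%. Neuron markers were abundant in all groups, with summed levels of 6824 to 8569 CPM in treated ECM, 8007 to 9634 CPM in ECM and 6433 to 9556 CPM in controls. The mean log2 CPM of cerebellum markers was 1.92 in ECM 1, 1.96 in ECM 3 and 2.30 in control 4, against 4.36 to 8.09 in the other libraries.

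Of 25 other microglia signature genes 24 had enough reads to be tested, and Trem2, a lipid-sensing receptor gene, was listed at 0 in all 12 libraries. The annotation used for counting is not stated, so this 0 does not show whether Trem2 was expressed. Levels of the 9 genes were compared with each other per exon length, as RPKM (reads scaled to exon length and library size). Exon length was the union of all annotated exons, 4272 bases in Selplg and 3383 in Siglech. Their longest transcripts have 2314 and 2301 bases, so the order depends on this choice of length. In controls P2ry12 was highest (22.0 ± 10.4 RPKM, SD, n = 4), followed by Csf1r (15.6 ± 0.550). The others lay below them, from Gpr34 (7.52 ± 1.61), Tmem119 (7.27 ± 3.28), Sall1 (6.39 ± 2.74), P2ry13 (5.49 ± 0.926), Selplg (4.97 ± 0.796) and Siglech (4.16 ± 0.612) to Olfml3 (2.70 ± 0.566 RPKM). Neighbours in this order differed by less than their spread, except that Csf1r stood above Gpr34, Selplg slightly above Siglech and Siglech above Olfml3. In ECM the order was led by Csf1r (22.3 ± 4.25 RPKM), with P2ry12 at 9.78 ± 4.00 RPKM, and Gpr34 (1.90 ± 0.969 RPKM) and Olfml3 (1.99 ± 0.265 RPKM), which differed by less than their spread, were the lowest. In treated ECM Csf1r had 18.3 ± 3.54, Tmem119 11.7 ± 1.20 and P2ry12 10.7 ± 3.45 RPKM. Levels from here on are in CPM, with library sizes scaled by the TMM method, and compare a gene between libraries.

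**Figure D1:**
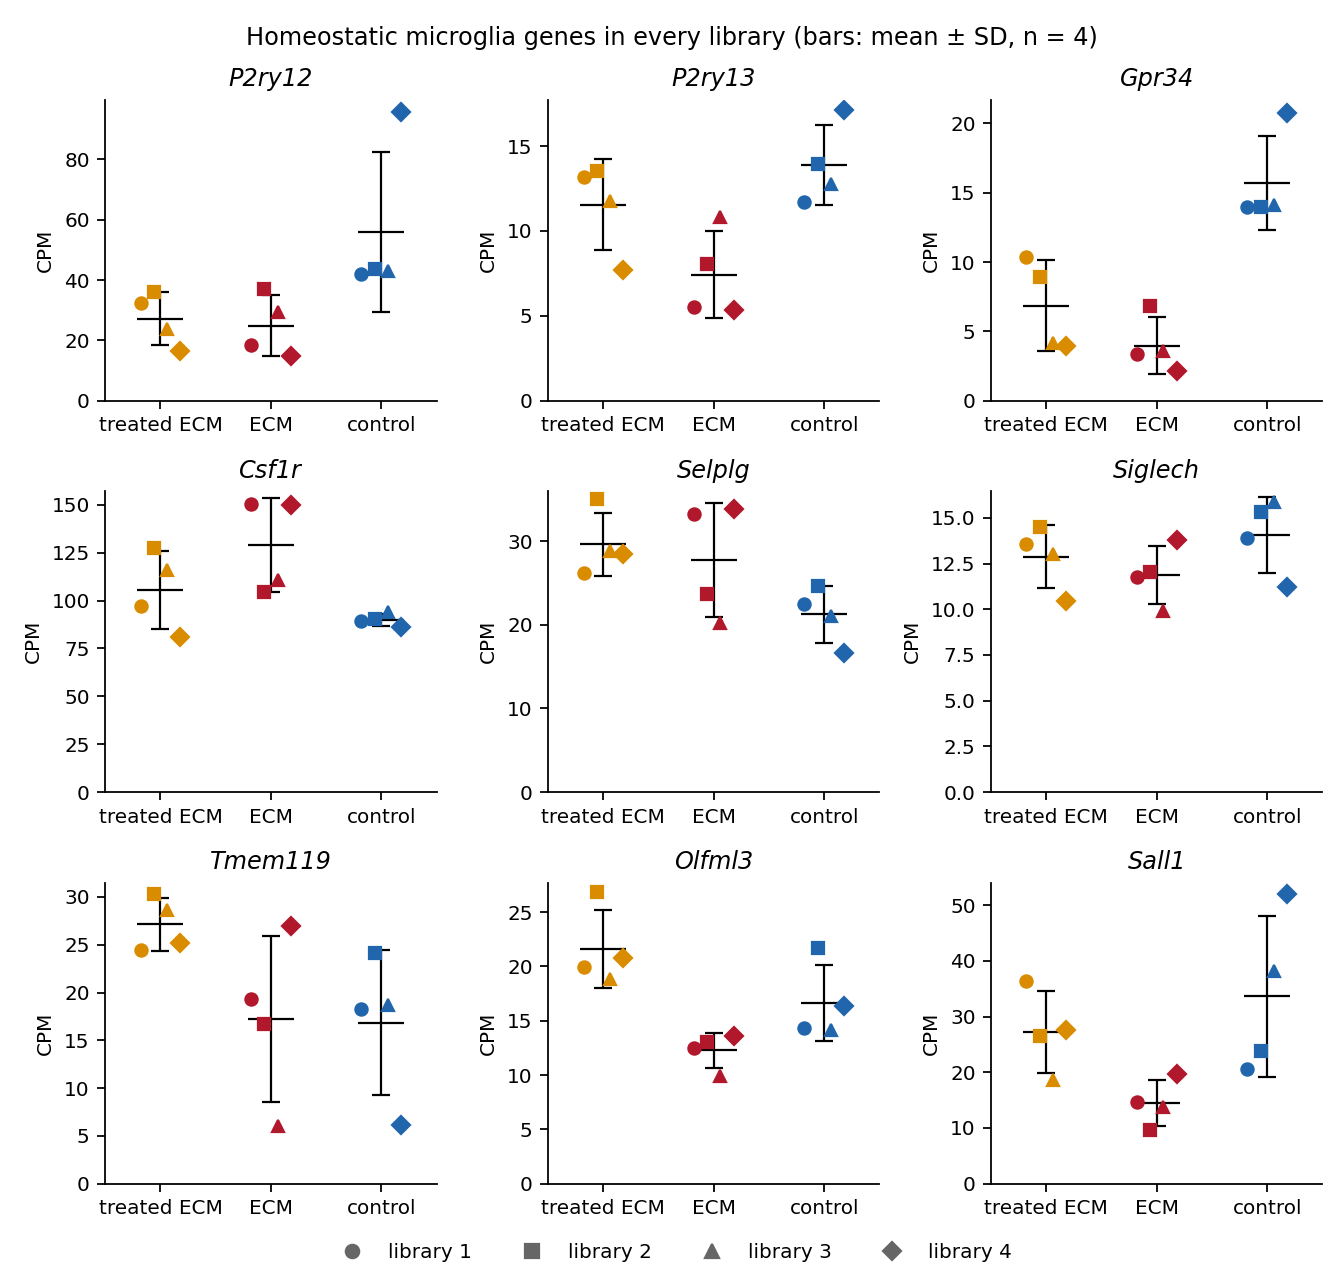
Levels of the 9 genes in CPM (y axis, from 0) in treated ECM, ECM and control libraries (x axis), with a marker shape for each library number and bars for the mean ± SD (n = 4). Gpr34 had 2.12 to 6.86 CPM in ECM libraries and 13.98 to 20.8 CPM in control libraries, while Tmem119 overlapped between them and spread widely in both.

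ECM against control asks how the brain's microglial transcripts differ in mice with cerebral malaria. The receptor genes Gpr34 and P2ry13 and the transcription factor gene Sall1 fell, Tmem119 and Siglech had fold changes near 0 that did not pass, and Csf1r and Selplg had positive values that did not pass. In all, 3 of 9 were lower and 0 were higher at an adjusted p below 0.05 (edgeR quasi-likelihood test, Benjamini-Hochberg over all genes tested), where 2.91% of all genes were lower and 7.30% higher. Their median log2 fold change was -0.44, against -1e-04 over all genes tested. In 5 of the 9 genes every ECM library was below every control library (P2ry12, P2ry13, Gpr34, Sall1 and Olfml3), as in 5.29% of all genes, and in Csf1r every ECM library was above, as in 9.17% of all genes.

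Gpr34 encodes a lysophosphatidylserine receptor of microglia and other myeloid cells and had the largest fold change of the 9. It lies on chromosome X, 13632089 to 13640858, plus strand (build mm10), inside an intron of Cask on the other strand, with 0 shared exon bases. Its level was 3.34, 6.86, 3.60 and 2.12 CPM in ECM 1 to 4 and 13.98, 13.98, 14.1 and 20.8 CPM in control 1 to 4. Every ECM library was below every control library, and the closest were ECM 2 and control 2. Gpr34 fell to 0.252 of the control level in ECM (log2 fold change -1.99 ± 0.39 SE, edgeR adjusted p = 0.00449). It was called in 12 of 12 fits that left out 1 library, with log2 fold changes of -2.39 to -1.79 and adjusted p up to 0.0185. The host gene Cask had a log2 fold change of -0.06 ± 0.18 (edgeR adjusted p = 0.889).

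P2ry12 and P2ry13 encode ADP receptors, and P2ry12 guides microglial processes toward ADP and ATP. Both genes lie on the minus strand of chromosome 3 inside Med12l, which is read from the other strand (P2ry12 at 59216272 to 59262871, P2ry13 at 59207892 to 59210882), and P2ry12 shares 9 exon bases with it. P2ry12 had 18.5, 37.0, 29.4 and 14.7 CPM in ECM 1 to 4 and 42.0, 43.6, 42.9 and 95.7 CPM in control 1 to 4. The groups did not overlap, and control 4 had more than any other library, 2.24 times the mean of the other 3 controls. P2ry12 did not pass (log2 fold change -1.17 ± 0.36, edgeR adjusted p = 0.0544), and passed in 2 of 12 fits that left out 1 library, without ECM 2 (-1.43, 0.0327) or treated 4 (-1.19, 0.0494). In the other 10 the adjusted p was 0.0565 to 0.140, and without control 4 the value was -0.79 (adjusted p = 0.127). In the authors' deposited table of this comparison P2ry12 is listed with a log2 fold change of -1.19 and an adjusted p of 0.0278, beside Gpr34 (-2.01, adjusted p = 1.57e-06) and Sall1 (-1.24, adjusted p = 0.00755).

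P2ry13 fell to 7.43 ± 2.56 CPM in ECM, against 13.9 ± 2.34 CPM in controls (SD, n = 4 each). Single libraries had 5.55, 8.04, 10.8 and 5.32 CPM in ECM 1 to 4 and 11.7, 13.9, 12.8 and 17.1 CPM in control 1 to 4. The groups did not overlap, but ECM 3 lay close to control 1. The log2 fold change was -0.91 ± 0.26 (edgeR adjusted p = 0.0424). The call was lost in 10 of 12 fits that left out 1 library (log2 fold change -1.003 to -0.79, adjusted p 0.0518 to 0.118) and was kept without ECM 3 or treated 4. Med12l had a log2 fold change of -0.49 ± 0.21 (edgeR adjusted p = 0.173), and whether reads were counted by strand is not stated.

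The 250 bases before the RefSeq start of P2ry12 and P2ry13 are shown because these neighbouring genes varied together across libraries, as described below. The windows lie on the minus strand of build GRCm38.p6, at chr3:59262986-59263235 for P2ry12 and chr3:59210883-59211132 for P2ry13. Capitals mark matches to AGGAAGT or GAGGAA, core sequences bound by the Spi1 product PU.1, a factor that macrophages and microglia need.
P2ry12: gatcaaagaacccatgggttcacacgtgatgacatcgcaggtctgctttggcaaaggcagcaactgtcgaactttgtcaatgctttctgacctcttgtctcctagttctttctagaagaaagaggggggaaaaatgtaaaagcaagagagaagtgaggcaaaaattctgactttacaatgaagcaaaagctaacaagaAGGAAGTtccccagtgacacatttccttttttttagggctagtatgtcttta
P2ry13: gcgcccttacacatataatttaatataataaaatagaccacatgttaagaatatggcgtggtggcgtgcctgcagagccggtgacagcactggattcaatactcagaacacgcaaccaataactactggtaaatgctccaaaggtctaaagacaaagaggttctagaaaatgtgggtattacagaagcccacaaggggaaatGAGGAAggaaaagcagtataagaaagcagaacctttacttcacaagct
On both strands, AGGAAGT was found once in the P2ry12 window and GAGGAA once in that of P2ry13. AGGAAGT occurs in 7.69% and GAGGAA in 23.3% of 32851 mouse promoter windows of the same length, and the matches are a description of these letters. RefSeq windows of 5 of the 9 genes were examined, and none was sought for Csf1r. Those of Siglech and Olfml3 held neither motif, and of 3 listed for Sall1 AGGAAGT was in 1. Spi1 itself rose in ECM (12.1 ± 3.51 against 2.93 ± 0.526 CPM in controls, log2 fold change 2.04 ± 0.25, edgeR adjusted p = 0.000117).

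Csf1r encodes the receptor for the growth factors Csf1 and Il34, on which microglia depend, and monocytes and macrophages also express it. It had 150.2, 105, 111 and 150.0 CPM in ECM 1 to 4 and 89.5, 90.6, 93.8 and 86.1 CPM in control 1 to 4. Every ECM library was above every control library, and the controls differed little (89.98 ± 3.17 CPM). The log2 fold change of 0.52 ± 0.17 did not pass (edgeR adjusted p = 0.0760), but did so without ECM 2 (0.61, adjusted p = 0.0343). Csf1r lies on chromosome 18, 61100598 to 61132149, and shares 873 exon bases, 15.1% of its exons, with Hmgxb3 on the other strand. Hmgxb3 had a log2 fold change of -0.25 ± 0.32 (edgeR adjusted p = 0.716).

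Selplg encodes the selectin ligand PSGL-1, which leukocytes also carry, and Siglech a sialic-acid-binding lectin that also marks plasmacytoid dendritic cells. Selplg had 33.3, 23.6, 20.2 and 33.8 CPM in ECM 1 to 4 and 22.5, 24.7, 21.1 and 16.6 CPM in control 1 to 4, and the groups overlapped (log2 fold change 0.39 ± 0.20, edgeR adjusted p = 0.272). Siglech had 11.8, 12.1, 9.92 and 13.8 CPM in ECM 1 to 4 and 13.9, 15.3, 15.8 and 11.2 CPM in control 1 to 4, again with overlap (-0.24 ± 0.18, adjusted p = 0.482). Summed over 10 monocyte markers, ECM libraries had 188 to 421 CPM and control libraries 13.5 to 16.7 CPM, and 10 of 10 were called higher (7.30% of all genes), among them the lysozyme gene Lyz2 (80.4 ± 25.3 against 7.96 ± 0.675 CPM in controls) and Chil3 (63.2 ± 29.9 against 0.0169 ± 0.0338 CPM in controls). Of 7 markers of plasmacytoid dendritic cells 3 could be tested, and 1 was called higher (7.30% of all genes). The factor gene Spib was listed at 0 in controls and had 0.0197 ± 0.0394 CPM in ECM. Of these 3 Bst2, which interferon also induces in other cells, rose (60.5 ± 25.4 CPM in ECM, 2.66 ± 1.21 CPM in controls, log2 fold change 4.50 ± 0.45, edgeR adjusted p = 1.73e-05). Pacsin1 (-0.40 ± 0.30, adjusted p = 0.488) and Cox6a2 (0.31 ± 0.25, adjusted p = 0.538) did not pass. The part of entering cells in the levels of Csf1r, Selplg and Siglech was not tested.

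Tmem119, a membrane protein gene used to tell microglia from other macrophages, did not differ by a called amount (17.3 ± 8.67 CPM in ECM and 16.8 ± 7.60 CPM in controls, log2 fold change 0.04 ± 0.41, edgeR adjusted p = 0.969). Its libraries spread widely: ECM 1 to 4 had 19.4, 16.7, 6.00 and 27.0 CPM, and control 1 to 4 had 18.3, 24.1, 18.7 and 6.16 CPM. The low values were in ECM 3 and control 4, and the large standard error leaves its direction undetermined. Olfml3, a gene for a secreted glycoprotein, had 12.5, 13.1, 9.92 and 13.6 CPM in ECM 1 to 4 and 14.4, 21.7, 14.2 and 16.4 CPM in control 1 to 4. Its groups did not overlap, but the log2 fold change of -0.44 ± 0.19 did not pass (edgeR adjusted p = 0.189).

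Sall1, the zinc finger transcription factor gene that holds microglia in their homeostatic state, fell to 14.4 ± 4.13 CPM in ECM, against 33.6 ± 14.4 CPM in controls (SD, n = 4 each). Single libraries had 14.7, 9.69, 13.7 and 19.7 CPM in ECM 1 to 4 and 20.6, 23.9, 38.2 and 51.9 CPM in control 1 to 4. ECM 4 lay close to control 1, and the controls spread more than ECM libraries. The log2 fold change was -1.22 ± 0.31 (edgeR adjusted p = 0.0233). The call was lost without control 3 (-1.17, adjusted p = 0.0639), control 4 (-0.93, 0.0553), ECM 1 (-1.22, 0.0570) or ECM 2 (-1.07, 0.0612), and without control 4, ECM 2 and ECM 3 together the value was -0.67 (adjusted p = 0.152).

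**Figure D2:**
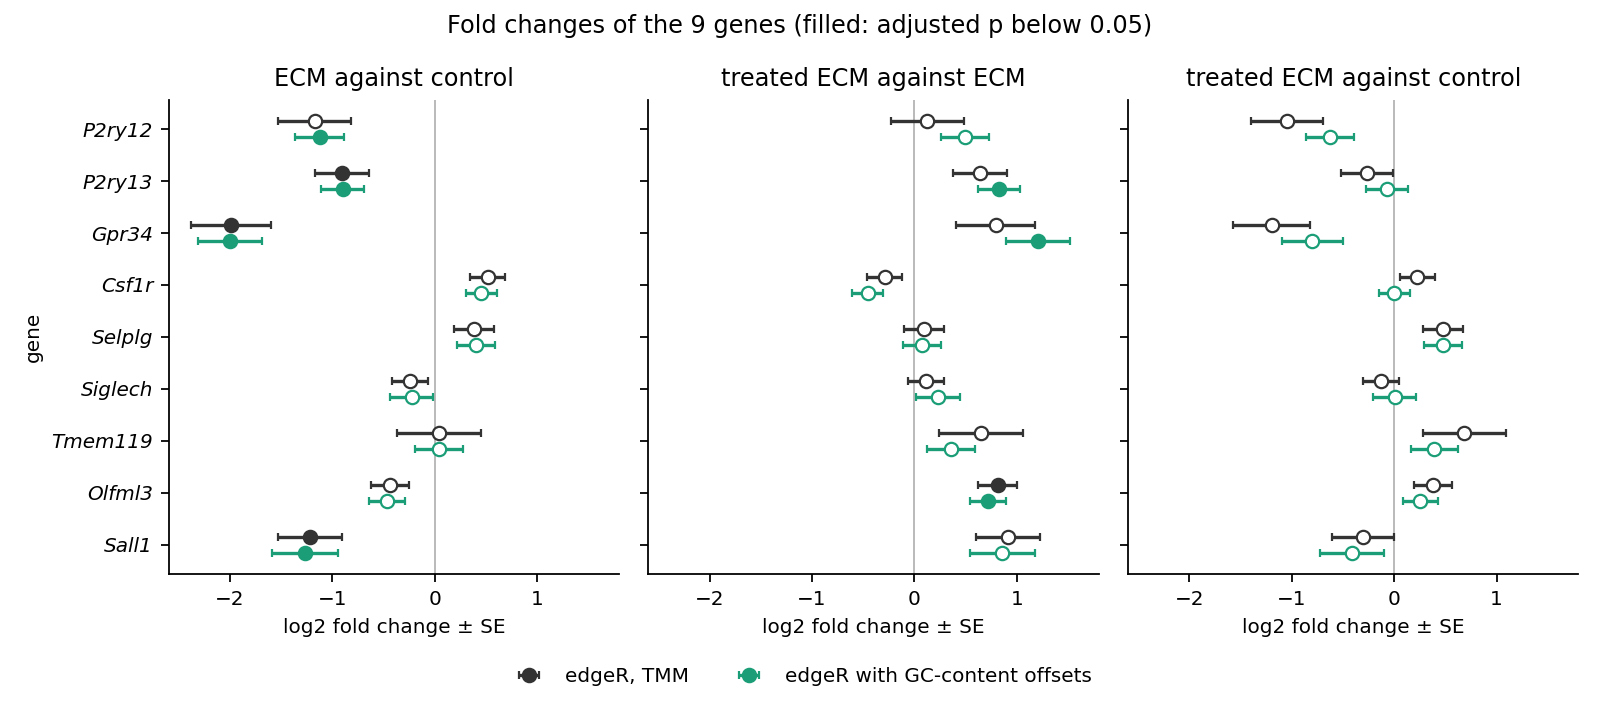
Log2 fold change ± SE of the 9 genes (y axis) in the 3 comparisons (panels), from edgeR with TMM scaling (black) and with GC-content offsets (green). Filled points have an adjusted p below 0.05; Gpr34 stands at -1.99 in ECM against control and at -2.002 with the offsets.

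Treated ECM against ECM asks which transcripts differ after artesunate. Olfml3 rose, and the other 8 genes did not pass, so that 1 of 9 was higher and 0 were lower, where 3.04% of all genes were higher and 5.67% lower. The median log2 fold change of the 9 was 0.64, against -0.01 over all genes tested, and 8 of the 9 values were positive. This comparison shares its ECM libraries with that of ECM against control.

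Olfml3 had 19.98, 26.9, 18.9 and 20.8 CPM in treated 1 to 4 and 12.5, 13.1, 9.92 and 13.6 CPM in ECM 1 to 4. Every treated library was above every ECM library, which held for 1 of the 9 genes and 10.4% of all genes, and 0 of the 9 lay wholly below (11.4% of all genes). The log2 fold change was 0.81 ± 0.19 (edgeR adjusted p = 0.0202), and the call was lost without treated 2 (0.71, adjusted p = 0.0724). Sall1 had 36.4, 26.5, 18.6 and 27.6 CPM in treated 1 to 4, and treated 3 lay below ECM 4. Its log2 fold change of 0.91 ± 0.31 did not pass (edgeR adjusted p = 0.0845), but did so without control 4 (0.91, 0.0388) or ECM 4 (1.12, 0.0470).

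Among the receptor genes, P2ry13 had 13.2, 13.5, 11.8 and 7.71 CPM in treated 1 to 4, with a log2 fold change of 0.64 ± 0.26 over ECM (edgeR adjusted p = 0.139). Gpr34 had 10.4, 8.91, 4.18 and 3.92 CPM in treated 1 to 4 (log2 fold change 0.79 ± 0.39, adjusted p = 0.213). Treated 1 and 2 were above all ECM libraries for Gpr34, while treated 3 and 4 lay within the ECM range. P2ry12 had 32.3, 36.0, 23.7 and 16.4 CPM in treated 1 to 4, with a log2 fold change of 0.13 ± 0.35 (adjusted p = 0.850). In these 3 genes treated 4 was the lowest treated library. Tmem119 had 24.4, 30.3, 28.6 and 25.2 CPM in treated 1 to 4, a narrower spread than in ECM, with a log2 fold change of 0.65 ± 0.41 (adjusted p = 0.333). For Csf1r, with 97.3, 127, 116 and 81.0 CPM in treated 1 to 4, the log2 fold change was -0.29 ± 0.17 (adjusted p = 0.296). Siglech (12.9 ± 1.74 against 11.9 ± 1.59 CPM in ECM) and Selplg (29.6 ± 3.78 against 27.7 ± 6.85 CPM in ECM) had log2 fold changes of 0.11 ± 0.18 and 0.09 ± 0.20.

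Treated ECM against control asks what still differs after treatment. None of the 9 genes passed (edgeR, 0 higher and 0 lower, against 1.96% and 0.0547% of all genes), 3 of them had an unadjusted p under 0.05 (Gpr34, P2ry12 and Selplg), as did 1666 of 14626 genes tested, and DESeq2 also called 0. Gpr34 (log2 fold change -1.20 ± 0.38, edgeR adjusted p = 0.202) and P2ry12 (-1.05 ± 0.35, adjusted p = 0.264) had the lowest values. Every treated library was below every control library for these 2 genes, as for 8.29% of all genes. The authors' deposited table of this comparison lists both, with log2 fold changes of -1.21 (adjusted p = 0.0123) for Gpr34 and -1.06 (adjusted p = 0.0410) for P2ry12. Tmem119 and Selplg were higher in every treated library than in any control library, as were 10.6% of all genes, with log2 fold changes of 0.69 ± 0.41 (edgeR adjusted p = 0.506) and 0.48 ± 0.20 (adjusted p = 0.388). With each library adjusted for GC content, treated and control libraries overlapped for P2ry12 (18.9 to 41.5 against 39.6 to 63.2 CPM). They also overlapped for Tmem119 (19.9 to 24.2 against 12.2 to 21.2 CPM), while Gpr34 and Selplg stayed apart. The values of P2ry13 (-0.26 ± 0.26), Sall1 (-0.30 ± 0.31), Siglech (-0.13 ± 0.18), Csf1r (0.23 ± 0.17) and Olfml3 (0.38 ± 0.19) also did not pass.

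The 9 genes differ in base composition. For Gpr34, P2ry12 and Tmem119, though not for all 9, the spread within ECM and within controls narrowed after adjustment for it. The longest transcripts of Gpr34 and P2ry12 hold 37.1% and 38.6% G and C, in the lowest 1.26% and 3.03% of tested genes, and that of Tmem119 holds 59.1%, above 93.1% of them. The other 6 range from 44.7% in P2ry13 to 54.5% in Csf1r, and the median of tested genes is 49.8%. The opening 120 bases of the coding sequences of Gpr34 (chrX:13639234-13639353, plus strand) and Tmem119 (chr5:113795619-113795738, minus strand; both GRCm38, GENCODE M21) are shown as the ends of this range, with G and C in capitals.
Gpr34: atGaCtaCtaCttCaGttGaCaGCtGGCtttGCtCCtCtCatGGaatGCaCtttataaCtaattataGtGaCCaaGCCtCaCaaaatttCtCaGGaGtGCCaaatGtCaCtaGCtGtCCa
Tmem119: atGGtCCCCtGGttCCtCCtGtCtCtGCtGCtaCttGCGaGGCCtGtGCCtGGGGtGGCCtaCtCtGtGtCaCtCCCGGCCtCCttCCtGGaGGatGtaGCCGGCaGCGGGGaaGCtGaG
G and C make up 41.7% of the Gpr34 stretch and 38.1% of its coding sequence, and 64.2% and 62.4% in Tmem119.

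Control 4, the library with the strongest negative relation to GC content, had 2.24 times the mean of the other controls for P2ry12, 1.48 times for Gpr34 and 0.302 times for Tmem119. After adjustment of each library for GC content these ratios were 1.46, 0.935 and 0.659. Sall1 stood apart in control 4 both before (1.89) and after (2.12) the adjustment. The SD of log2 CPM of Gpr34 was 0.358 in ECM and 0.108 in controls after adjustment, against 0.674 and 0.281 before, and in treated ECM it was 0.714 after and 0.712 before. For Tmem119 it was 0.551 in ECM and 0.341 in controls after adjustment, against 0.924 and 0.867 before, while that of Csf1r in controls was 0.222 after and 0.0509 before. For Siglech it was 0.332 in ECM and 0.378 in controls after, against 0.193 and 0.222 before.

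**Figure D3:**
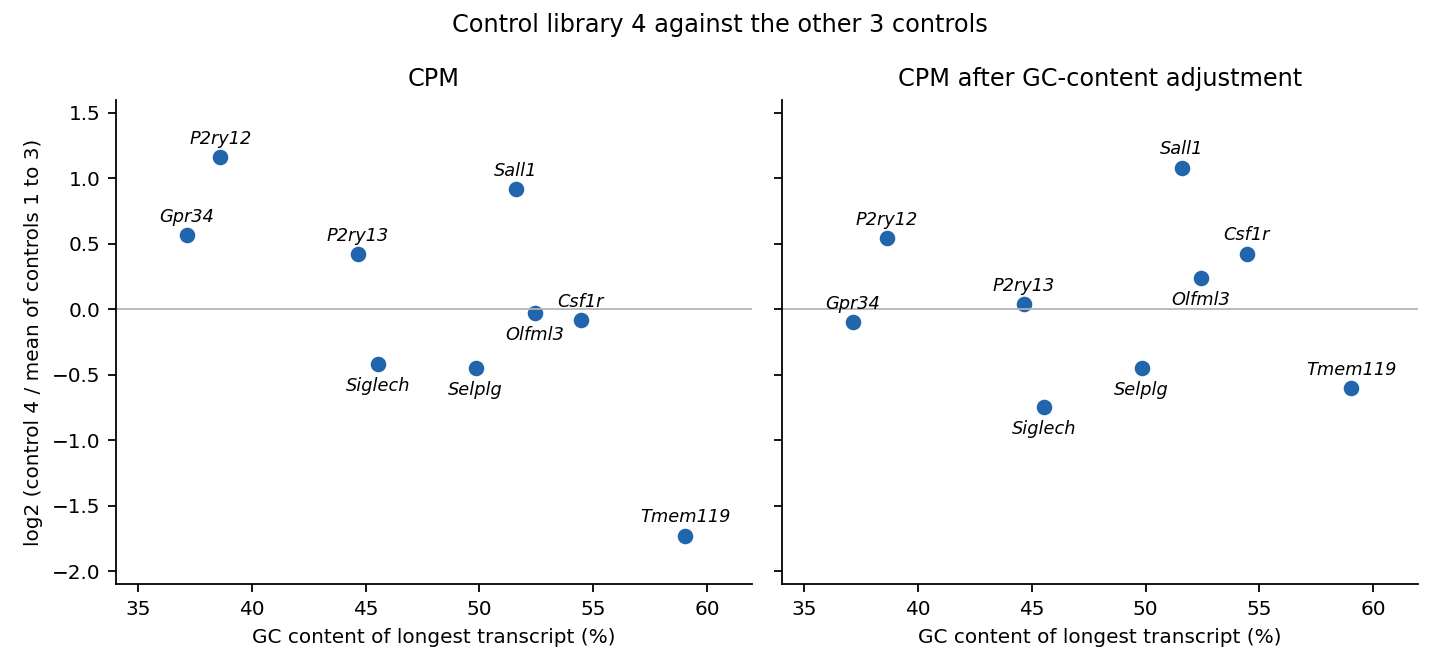
Log2 ratio of control 4 to the mean of controls 1 to 3 (y axis) against the GC content of the longest transcript (x axis, %) for the 9 genes, before (left) and after (right) adjustment for GC content. P2ry12 (2.24 and 1.46 times) and Tmem119 (0.302 and 0.659 times) moved toward 0, while Sall1 (1.89 and 2.12 times), Siglech (0.748 and 0.597), Csf1r (0.943 and 1.34) and Olfml3 (0.979 and 1.18) moved away from it.

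With GC-content offsets in the edgeR model, 4 of 9 genes were lower in ECM than in controls (5.70% of all genes) and 0 higher (10.3%): Gpr34 (log2 fold change -2.002 ± 0.31, adjusted p = 0.000640), P2ry12 (-1.12 ± 0.24, adjusted p = 0.00560), P2ry13 (-0.90 ± 0.21, adjusted p = 0.0103) and Sall1 (-1.27 ± 0.32, adjusted p = 0.0158). Tmem119 stayed at 0.04 ± 0.23 (adjusted p = 0.933). Relative to ECM, 3 of 9 were higher in treated ECM (5.85% of all genes) and 0 lower (8.98%): Gpr34 (1.20 ± 0.31, adjusted p = 0.0221), P2ry13 (0.83 ± 0.21, adjusted p = 0.0196) and Olfml3 (0.72 ± 0.17, adjusted p = 0.0158). Between treated ECM and control none passed (2.24% of all genes higher, 0.0479% lower), with P2ry12 at -0.63 ± 0.23 and Gpr34 at -0.80 ± 0.30.

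The ratio of each gene to Tmem119 in the same library asks whether microglial genes changed by unequal amounts in the same brains. In ECM against control 0 of 8 ratios passed (limma on log2 CPM, 2.77% of all genes), with Gpr34 at -2.06 ± 0.65 (limma adjusted p = 0.151). With adjustment for GC content 1 of 8 passed (5.78% of all genes), Gpr34 at -2.0001 ± 0.36 (limma adjusted p = 0.00124). When treated ECM was set against ECM or control, 0 of 8 ratios to Tmem119 passed, with or without the adjustment (2.05% and 0.334% of all genes without it, 7.64% and 1.12% with it).

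As a description over 12 libraries, the deviations of log2 CPM from the group means correlated at r = 0.858 between P2ry12 and Gpr34 and at 0.850 between P2ry12 and P2ry13 (0.745 and 0.777 after adjustment for GC content). Tmem119 went with Selplg (0.868, or 0.758 adjusted) and Siglech (0.806, or 0.752). P2ry12 and Tmem119 ran in opposite directions (-0.638), and less so after adjustment (-0.196). These libraries share their composition, so the genes are not independent. Over all 12 libraries and without regard to group, the genes most like Gpr34 by Pearson r of log2 CPM were Hs3st5 (0.933) and Tubgcp5 (0.919), and those most like P2ry12 were Mpped2 (0.926) and Mfap3l (0.923). Tmem119 was most like Abhd17a (0.986) and Crlf2 (0.984), both richer in G and C (64.6% and 65.6%) than Tmem119. P2ry13 was most like Zfp78 (0.949) and Bbs7 (0.919), Sall1 like Ptpro (0.939) and its family member Sall3 (0.938), and Csf1r like Kcnk6 (0.919) and Slc11a2 (0.872). The same measure gave Pgpep1l (0.945) for Olfml3, Rasip1 (0.937) and Nkain4 (0.932) for Selplg, and Grtp1 (0.858) and Sufu (0.854) for Siglech.

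Other microglia genes rose more often than they fell in ECM. Of 24 tested, 12 were higher than in controls and 2 lower (7.30% and 2.91% of all genes), with a median log2 fold change of 0.75. The counts were the same with GC-content offsets (10.3% and 5.70% of all genes). They were also the same without control 4, ECM 2 and ECM 3, where more genes in all were called (1554 higher and 1164 lower). Ctss, a lysosomal cysteine protease gene, rose to 321 ± 97.8 CPM in ECM, against 67.5 ± 12.4 CPM in controls (log2 fold change 2.25 ± 0.23, edgeR adjusted p = 2.09e-05). Cd53, a tetraspanin gene (2.11 ± 0.34, adjusted p = 0.000918), and the complement gene C1qb (1.96 ± 0.19, adjusted p = 1.22e-05) followed. Several of these genes are also expressed by monocytes, whose markers rose with them, and the part of monocytes was not tested. The 2 lower genes were Fcrls, a scavenger receptor gene of mouse microglia (8.62 ± 3.14 in ECM and 20.8 ± 5.46 CPM in controls, -1.27 ± 0.31, adjusted p = 0.0174), and Slc2a5, a fructose transporter gene (1.72 ± 0.184 in ECM and 3.67 ± 0.579 CPM in controls, -1.08 ± 0.24, adjusted p = 0.0105). The fractalkine receptor gene Cx3cr1 did not pass (-0.26 ± 0.15, adjusted p = 0.327).

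After treatment the same list had 2 genes higher and 7 lower than in ECM (median -0.37), where 3.04% of all genes were higher and 5.67% lower. Fcrls rose to 24.0 ± 6.11 CPM in treated ECM, against 8.62 ± 3.14 CPM in ECM (log2 fold change 1.47 ± 0.31, edgeR adjusted p = 0.0118), and Slc2a5 to 4.28 ± 0.903, against 1.72 ± 0.184 CPM in ECM (1.31 ± 0.24, adjusted p = 0.00630). Cd53 (-1.88 ± 0.33, adjusted p = 0.00504), Cd33 (-1.74 ± 0.28, adjusted p = 0.00344) and Ctss (-1.72 ± 0.22, adjusted p = 0.000939) had the largest falls. Compared with controls 2 were higher in treated ECM, where 1.96% of all genes were higher. They were P2ry6, a UDP receptor gene linked to phagocytosis (1.19 ± 0.24, edgeR adjusted p = 0.0142), and C1qb (1.01 ± 0.18, adjusted p = 0.00741). The count was 1 with GC-content offsets (2.24% of all genes), where P2ry6 did not pass, and 6 without control 4, ECM 2 and ECM 3.

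**Figure D4:**
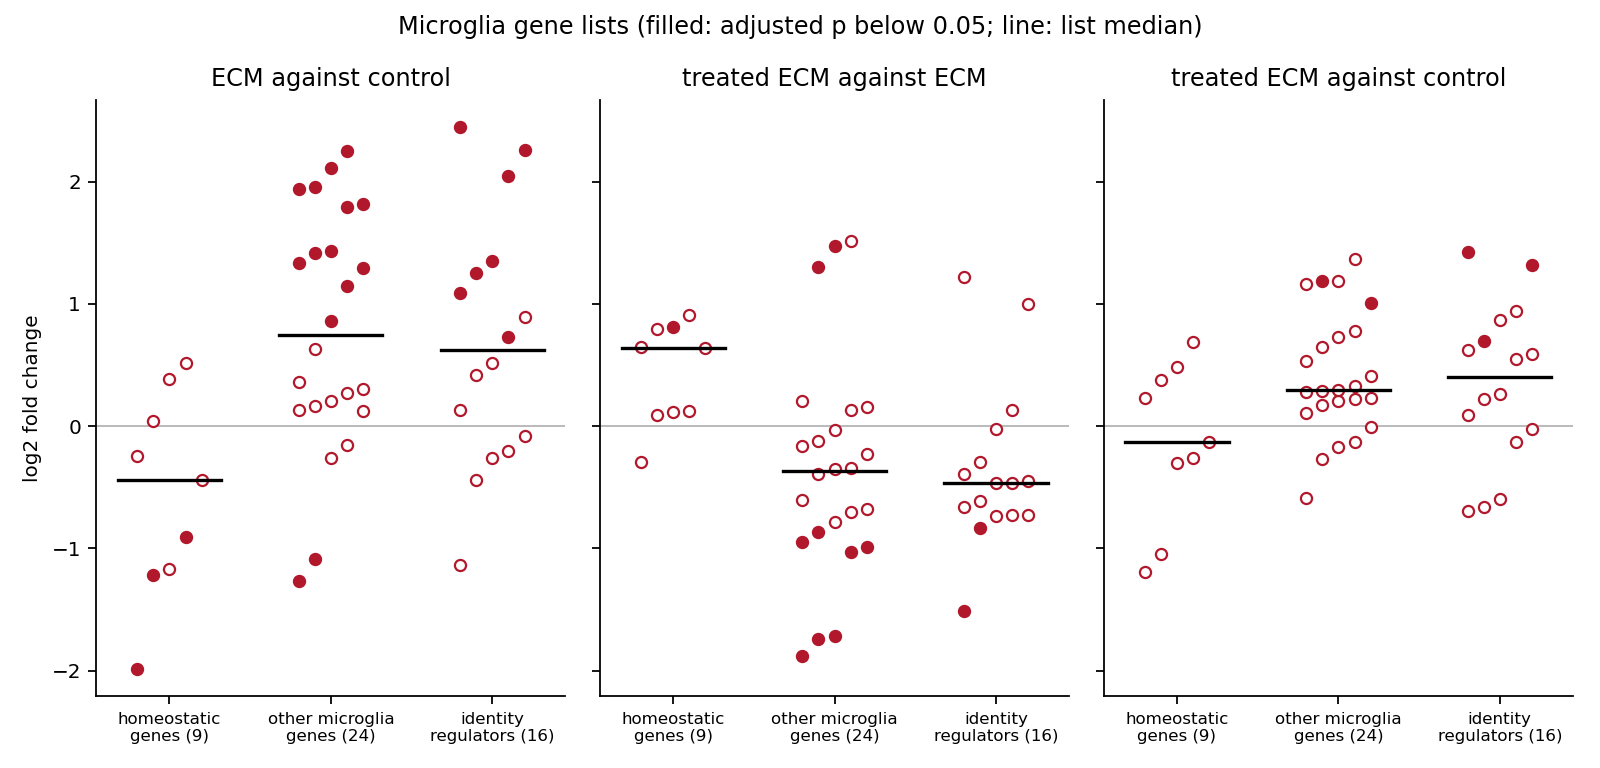
Log2 fold change (y axis) of the homeostatic genes (9), other tested microglia genes (24) and identity regulators (16) in the 3 comparisons, 1 point per gene, filled at an adjusted p below 0.05, with a line at the median. In ECM against control the medians were -0.44, 0.75 and 0.62.

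Of 16 other genes that maintain or regulate microglial identity, 7 rose in ECM against control and 0 fell (median 0.62), where 7.30% of all genes were higher and 2.91% lower. The myeloid factors Runx1 (2.45 ± 0.34, edgeR adjusted p = 0.000309), Irf8 (2.26 ± 0.23, adjusted p = 2.42e-05) and Spi1 rose, as did the ligand gene Tgfb1 (1.25 ± 0.23, adjusted p = 0.00242). Monocytes also express Runx1, Irf8 and Spi1, and of the 10 monocyte markers 10 were higher in ECM than in control. In treated ECM against ECM 8 were lower and 1 higher (5.67% and 3.04% of all genes). The higher one was Ly6i (1.91 ± 0.55, edgeR adjusted p = 0.0483). The part of monocytes in the values of Runx1, Irf8 and Spi1 was not tested. The receptor gene Tgfbr1 (-0.20 ± 0.18, adjusted p = 0.572) and the factor gene Mef2c (-0.08 ± 0.38, adjusted p = 0.930) did not pass. Mef2c had 493 ± 194 CPM in ECM and 522 ± 305 CPM in controls, and which cells of the brain its reads came from was not tested. Relative to ECM 2 fell in treated ECM (5.67% of all genes), Runx1 (-1.51 ± 0.33, adjusted p = 0.0137) and Irf8 (-0.83 ± 0.22, adjusted p = 0.0352). With GC-content offsets 7 fell (8.98% of all genes) and 1 rose (5.85%). Against control 3 were higher in treated ECM (1.96% of all genes), Irf8 (1.43 ± 0.23, adjusted p = 0.00328), Spi1 (1.32 ± 0.25, adjusted p = 0.0113) and Csf1 (0.70 ± 0.15, adjusted p = 0.0239), or 1 with the offsets (2.24%).

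Of the partners of the 9 genes, Csf1, a ligand of the Csf1r product, rose to 40.6 ± 4.38 CPM in ECM, against 19.1 ± 2.57 CPM in controls (log2 fold change 1.09 ± 0.15, edgeR adjusted p = 0.000250). Il34, the other ligand, did not pass (21.7 ± 9.79 CPM in ECM and 29.6 ± 10.5 CPM in controls, -0.44 ± 0.33, adjusted p = 0.479). Selp and Sele, which encode endothelial selectins that bind PSGL-1, rose in ECM against control, with few reads in control libraries. Selp had 3.71 ± 0.989 CPM in ECM and 0.172 ± 0.181 CPM in controls (edgeR adjusted p = 0.000217), and Sele had 1.40 ± 1.10 CPM in ECM and 0.0351 ± 0.0406 CPM in controls (adjusted p = 0.00133). Pla1a, which encodes a phospholipase that makes lysophosphatidylserine, rose to 6.01 ± 1.23 CPM in ECM, against 1.28 ± 0.159 CPM in controls (2.22 ± 0.25, adjusted p = 4.98e-05). It fell in treated ECM against ECM (2.09 ± 0.395 CPM in treated ECM, -1.52 ± 0.24, adjusted p = 0.00291). Of these 7 partner genes, with the adaptor gene Tyrobp (1.43 ± 0.35, adjusted p = 0.0197), 6 rose in ECM, 2 fell in treated ECM against ECM and 4 were higher in treated ECM than in control. Over all genes these shares were 7.30%, 5.67% and 1.96%.

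Among 14 other purinergic genes 4 rose and 0 fell in ECM against control (median 0.01): Adora3 (1.97 ± 0.38, edgeR adjusted p = 0.00405) and P2ry2 (1.66 ± 0.36, adjusted p = 0.00839), receptor genes for adenosine and for ATP and UTP, P2ry6 (1.42 ± 0.24, adjusted p = 0.00129) and Entpd1, which encodes the ectoenzyme CD39 that degrades ATP and ADP (0.77 ± 0.19, adjusted p = 0.0210). Over all genes 7.30% were higher and 2.91% lower. With GC-content offsets the counts were 5 and 2 (10.3% and 5.70% of all genes). Entpd1 had 17.7 ± 2.52 CPM in treated ECM, 38.8 ± 6.85 CPM in ECM and 22.8 ± 5.20 CPM in controls, and fell in treated ECM against ECM (-1.13 ± 0.19, adjusted p = 0.00422), as did P2ry2 (-1.70 ± 0.36, adjusted p = 0.0121). The adenosine receptor gene Adora2a rose there, just under the threshold (1.77 ± 0.51, adjusted p = 0.0495). It had 46.6 ± 5.98 CPM in treated ECM, 13.6 ± 8.79 CPM in ECM and 39.2 ± 18.9 CPM in controls. Which cells of the brain its reads came from was not tested. In that comparison 3.04% of all genes were higher and 5.67% lower.

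Markers of other cells gave the setting of these values. The summed level of 8 border macrophage markers was 17.0 to 22.7 CPM in treated ECM, 28.9 to 40.1 CPM in ECM and 11.6 to 18.4 CPM in controls, and 2 of the 7 tested were called higher in ECM against control. For 10 T and NK cell markers the sums were 24.1 to 49.0 CPM in treated ECM, 87.7 to 169 CPM in ECM and 8.70 to 14.1 CPM in controls, with 9 called higher in ECM against control. Over all genes 7.30% were called higher in that comparison. Of 7 platelet markers, named because platelets also express P2ry12, the sums were 1.96 to 2.88 in treated ECM, 1.92 to 3.72 in ECM and 1.22 to 2.72 CPM in controls. Gp1bb, Clec1b, Treml1 and Gp6 were at 0 in controls, and Gp1bb and Treml1 also in ECM. Only Itga2b could be tested, and it did not pass in ECM against control (0.38 ± 0.31, edgeR adjusted p = 0.540). The sum of the 9 homeostatic genes was 222 to 319 CPM in treated ECM, 214 to 280.0 CPM in ECM and 247 to 322 CPM in controls, and the groups overlapped. Csf1r alone gave 105 to 150 CPM of this in ECM and 86.1 to 93.8 CPM in controls, a difference that did not pass (edgeR adjusted p = 0.0760). The sum therefore does not show how the other homeostatic genes moved.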

How the data were processed

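Whole-brain RNA was made into libraries with a NEBNext Ultra kit, per the labels' protocols. Trimmomatic, FastQC, STAR and HTSeq on mm10 gave the deposited read counts per gene, per the submitters' processing notes; their versions and the annotation and strand setting used are not stated there. The authors' deposited tables of 3 comparisons also hold log2 fold changes, p-values, a normalized signal and FPKM, per the file headers; no test here used the signal or FPKM values. In 2212 of 21983 genes, all with long names (8 characters or more), columns were shifted in the file and were realigned. The values of treated 4 in these genes differed from the deposited tables, so they were fitted with 11 libraries. This departure from the planned fit with 12 was chosen once the files had been seen. The 9 homeostatic genes were not affected. A further 26 names were unusable and left out.

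After TMM scaling and the filterByExpr filter, counts were tested in 1 edgeR 4.0.16 quasi-likelihood model of 3 groups (R 4.3.3), with Benjamini-Hochberg adjustment over 14626 genes and a threshold of 0.05. Ratios to Tmem119 were tested with limma 3.58.1 on log2 CPM (prior count 2) over 13793 genes without displaced values. GC-content offsets were a lowess curve (span 0.3) per library on the GC content of the longest GENCODE M21 transcript, which 21871 genes (99.5%) matched by symbol. Promoter windows are from RefSeq. The edgeR model, with and without GC-content offsets, and the unadjusted ratio model were tried on simulated data for ECM against control. The other models were not. Alternatives were DESeq2 1.42.0, other scalings and filters, a replicate block, covariates and the omission of libraries, with GC offsets combined with others, and the other lists under GC offsets or fewer libraries, added after the data were seen. Gene lists are the 9 genes, other microglia genes, identity regulators, purinergic genes, partners and cell type markers. Genes named are the 9, up to 3 called genes per list, direction and comparison with the largest fold changes, fixed genes of these lists, and the 2 most alike genes of each member; overlapping genes were added for their position. A few genes that this rule selects are not reported here. The members and lists were chosen with earlier results of these data known. Tables and plots were made with Python 3.11.15, pandas 2.3.3, numpy 2.4.6 and matplotlib 3.10.9.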

Additional observations from a re-analysis of the deposited data

Results flagged for a closer look

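In 27 groups of 4 libraries, 1 for each of the 9 genes in each group, the gap of the highest or lowest library to its nearest neighbour was divided by the group's range and compared with Dixon's critical value for 4 libraries. P2ry12 in controls gave 0.9703 and Gpr34 in controls 0.9834, in both cases because control 4 (95.7 and 20.8 CPM) was far above the other 3 controls (42.0 to 43.6 and 13.98 to 14.1 CPM). Chance flags about 1 in 20 groups. After adjustment for GC content control 4 had 63.2 CPM of P2ry12, against 39.6 to 46.5 CPM in the other controls, and 13.3 CPM of Gpr34, inside their range of 12.96 to 15.1 CPM. Without control 4, Gpr34 was still called lower in ECM than in control, and Sall1 and P2ry13 were not.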

How the results depend on the processing

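Over all alternatives but the combined GC-content ones, 503 fold changes of the 9 genes kept their side of the threshold, 18 came to pass and 19 no longer passed (44, 9 and 1 over the combined ones), and no called value changed sign. In ECM against control 3 genes were lower and 0 higher. The fit of these groups alone gave 1 lower, omission of 1 library 1 to 4 lower and 0 to 1 higher, DESeq2 1 higher (Csf1r, log2 0.51, adjusted p = 0.0363), and omission of control 4, ECM 2 and ECM 3 2 higher (Csf1r and Selplg), or 2 also with GC-content offsets. P2ry12 passed in DESeq2 (-1.18, 0.0138), with GC-content offsets (-1.12, 0.00560), with the cerebellum score (-1.18, 0.0365) and without a filter (-1.20, 0.0480), but not with the replicate block (adjusted p = 0.119), these groups alone (0.101), DESeq2 size factors (0.0577) or without control 4 (-0.79, 0.127). In treated ECM against ECM 1 was higher and 0 lower, against 2 higher in DESeq2, 3 with GC-content offsets, 2 higher and 1 lower (Csf1r) without the same 3 libraries, 3 and 1 with both, and 0 to 2 higher with 1 library left out. Of ratios to Tmem119 in ECM against control 0 differed, and 1 with GC-content offsets.

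Over all genes, 1492 were called in ECM against control, 867 with these groups alone, 2669 with the cerebellum score, 2333 with GC-content offsets, 2718 without the 3 libraries and 2877 with both. In treated ECM against ECM 1275 were called, 2154 by DESeq2, 2169 with GC-content offsets, 2268 without the 3 libraries, 2807 with both and 551 to 2107 with 1 library left out. In treated ECM against control 295 were called, 456 by DESeq2, 470 without the 3 libraries and 460 with both. The cause of these shifts was not tested.

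Replicate numbers are shared by the groups but did not pair the libraries (correlations of same-numbered deviations -0.614 to 0.3). With a replicate block 1003 genes were called in ECM against control, 545 between treated ECM and ECM, and 220 between treated ECM and control. Under it 2 of the 9 genes were lower in ECM (P2ry13 lost, adjusted p = 0.0756) and 1 was higher in treated ECM against ECM. The block with GC-content offsets gave 3 higher there. Depth limits Gpr34 in ECM, where it had 41 to 87 reads per library, against 194 to 307 in controls.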
